A study of Danio rerio with 6 samples.

Results

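The genes described here are 10 regulators of hematopoietic stem and progenitor cells, named by symbol as runx1, cbfb, myb, gata2a, gata2b, ikzf1, etv6, meis1b, dnmt3bb.1 and adgrg1, and looked up in a table of 35197 gene rows. Of the 10, 9 had a row, and etv6 was not analysed here. The table holds poly-A RNA sequencing of whole zebrafish embryos at 48 hours post-fertilization, without treatment, in 3 libraries from homozygous dnajc21 mutants and 3 from wildtype embryos. Between 30 and 50 embryos were pooled for each library. Casper, a strain with little pigment, is the name on the wildtype columns. The labels give neither the mutants' strain background nor the dnajc21 lesion, so strain and genotype cannot be told apart. Separate clutches are not stated either, and the p-values therefore cover only the spread among these pools, which may be partly technical. The title of the series names cytopenia after loss of Dnajc21, a co-chaperone of late large ribosomal subunit assembly, and these genes address whether transcripts of the blood stem cell program differed in the mutants.

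Definitive blood stem cells arise from hemogenic endothelium in the floor of the dorsal aorta and then lodge in the caudal hematopoietic tissue, the site of blood formation in the zebrafish larva. Gata2 factors act early in the endothelium, Runx1 with its partner Cbfb drives the transition from endothelium to blood, and Myb is needed for the stem cells that follow. Ikzf1 leads towards lymphoid cells, Etv6 and Meis1 act in stem and progenitor maintenance, Dnmt3bb.1 is a DNA methyltransferase known in zebrafish to keep myb expressed in these cells, and Adgrg1 (also called Gpr56) is an adhesion receptor of stem cells. Several of these genes are not specific to blood: gata2a, meis1b, cbfb and adgrg1 are also transcribed in neural and other tissues. In a whole embryo, fewer cells of a type and less RNA per cell cannot be told apart.

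Total counts ran from 9826927 to 11798543 in mutant libraries and from 8600951 to 10635686 in wildtype libraries. The dnajc21 transcript averaged 18.0 ± 1.48 CPM in mutants and 26.1 ± 4.27 CPM in wildtype (SD, n = 3 each), where CPM, the level used throughout, are counts scaled to the same library size with TMM factors. Its log2 fold change of mutant over wildtype was -0.55 (adjusted p = 0.00492 by the quasi-likelihood test of edgeR). The wildtype libraries stood further apart than the mutant ones. The chi-square per degree of freedom between pairs of libraries was 2.08 to 2.78 among mutants and 5.62 to 28.6 among wildtype, with both of the highest values involving wildtype replicate 2. The embryonic globin gene hbae1.1 held 2472, 2386 and 2396 CPM in mutant replicates 1 to 3 and 3307, 1478 and 1671 CPM in wildtype replicates 1 to 3, so wildtype replicate 1 was the highest library. In a RefSeq gene table of another assembly (GRCz12tu), 0 of the 10 regulators lie on the chromosome of dnajc21.

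Among the stem and progenitor regulators, adgrg1 rose in mutants and the other genes tested did not pass the test. A filter on low counts was passed by 8 of the 9 genes with a row, and gata2b did not pass. Of these 8, adgrg1 was called higher in mutants and 0 were called lower. The call needed an adjusted p under 0.05 in edgeR's quasi-likelihood test, with Benjamini-Hochberg adjustment over all 20229 genes tested. The same rule called 11.7% of all genes tested, 5.85% higher and 5.87% lower, so 1 of 8 is near the background. At an unadjusted p under 0.05 there were 2 of 8, adgrg1 and dnmt3bb.1, against 25.5% of all genes tested. DESeq2 and limma-voom each called adgrg1 higher and 0 lower. The 3 mutant libraries lay above the 3 wildtype libraries for adgrg1 and dnmt3bb.1, or 2 of 8, and the groups did not overlap in 30.5% of all genes. Log2 fold changes of the 8 genes ran from -0.35 to 0.43, 5 were positive and 3 negative, and their median was 0.09, against -0.006 over all genes tested.

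**Figure D1:**
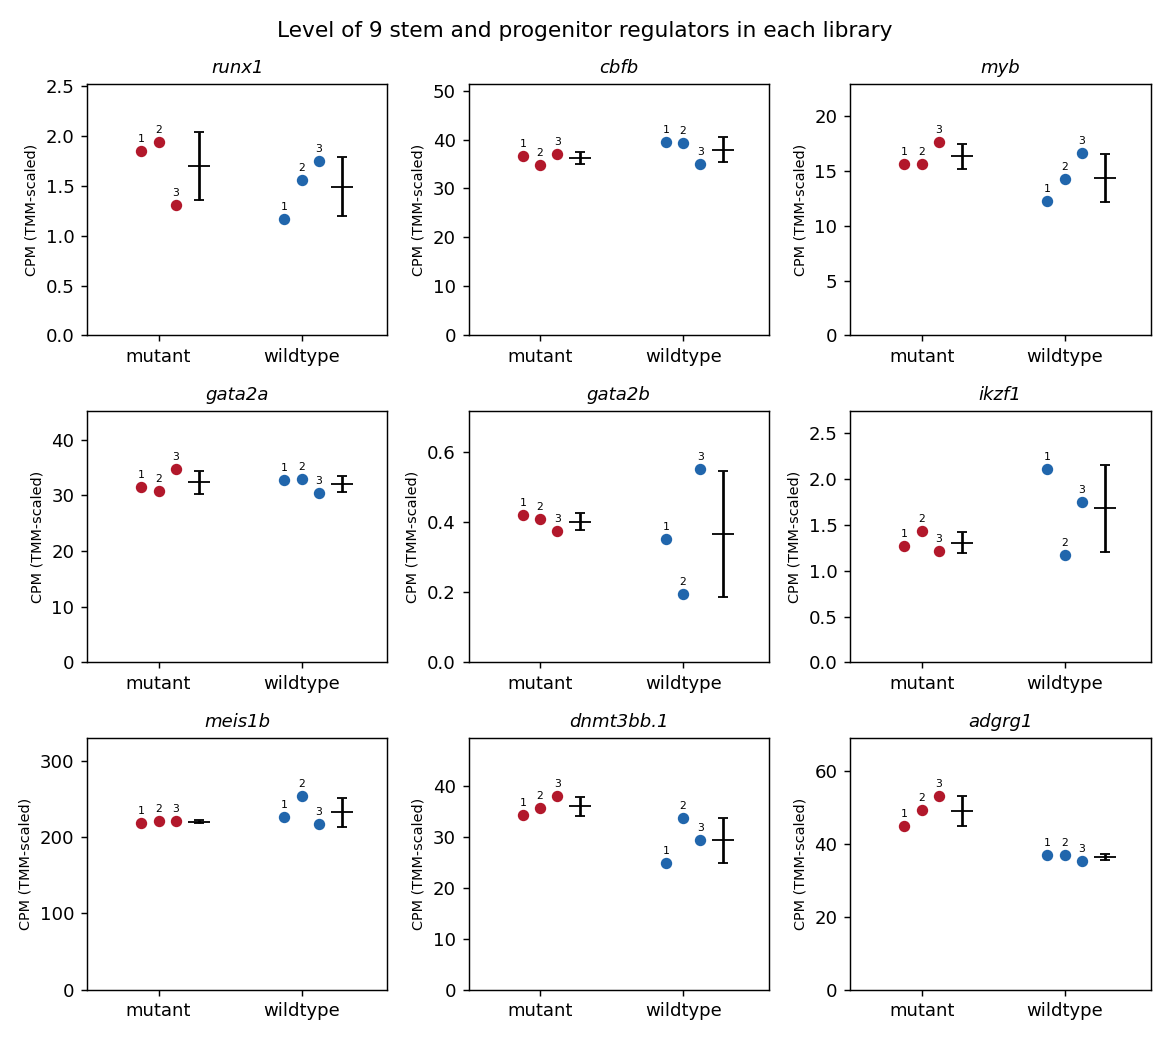
Level of each regulator with a row, in TMM-scaled CPM (vertical axes, starting at 0), with 1 point per library numbered by replicate and the mean ± SD of 3 libraries beside them. Mutant libraries lie above all wildtype libraries for adgrg1 and dnmt3bb.1, and the groups overlap in the other 7 genes.

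The early factor gata2a, expressed in endothelium, in hematopoietic cells and in neurons, had overlapping values in both genotypes and did not pass the test. Row LL0000011160 held 31.5, 30.8 and 34.8 CPM in mutant replicates 1 to 3 and 32.8, 33.0 and 30.5 CPM in wildtype replicates 1 to 3. The groups overlapped, and mutant replicate 3 was the highest library and wildtype replicate 3 the lowest. This gave a log2 fold change of 0.02, with a 95% interval from -0.16 to 0.19, or 0.894 to 1.14 as a ratio (adjusted p = 0.94). In the RefSeq table gata2a overlaps pbrm1, a gene of a chromatin remodeling complex. The counting is not stated to use strand. The counts of gata2a are whole in all 6 libraries, so no sign of reads divided with another row was seen.

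Its paralog gata2b, which in zebrafish marks hemogenic endothelium more narrowly, was at the limit of detection. Row LL0000011161 held 5, 4.41 and 4 expected counts in mutant replicates 1 to 3, and 2.66, 2 and 6 in wildtype replicates 1 to 3. Scaled to depth these were 0.421, 0.41 and 0.374 CPM in mutants and 0.351, 0.195 and 0.553 CPM in wildtype. Wildtype replicates 2 and 3 were the lowest and the highest of the 6 libraries, so the groups overlapped fully. Rounded counts summed to 13 in mutants and 11 in wildtype, a depth-scaled ratio of 1.08 with an exact 95% interval from 0.448 to 2.67 for counting error only. A difference within those limits was not detectable at this depth. The decimals in 2 libraries added up to whole numbers with those of 1 other row, CR450814.1, which held at most 1.59 counts in any library.

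The central factor runx1 and its partner cbfb, which stabilizes Runx1 on DNA, did not pass the test. For runx1, row LL0000024101 held 22, 19 and 14 counts in mutant replicates 1 to 3, and 10, 16 and 19 counts in wildtype replicates 1 to 3. As CPM these were 1.85, 1.94 and 1.31 in mutants and 1.17, 1.56 and 1.75 in wildtype. The highest 2 libraries were mutant replicates 2 and 1 and the lowest was wildtype replicate 1, and the groups overlapped. The means were 1.70 ± 0.344 CPM in mutants and 1.49 ± 0.295 CPM in wildtype (SD, n = 3 each). The log2 fold change was 0.17 (SE 0.334, adjusted p = 0.801), with a 95% interval from -0.53 to 0.87, so that ratios between 0.693 and 1.83 lie within it. It was 0.04 without wildtype replicate 1, 0.08 without mutant replicate 2, 0.11 without mutant replicate 1, 0.31 without wildtype replicate 3 and 0.33 without mutant replicate 3, and not called in any of these. Summed over libraries, 55 counts in mutants stood against 45 in wildtype, a depth-scaled ratio of 1.12 with an exact 95% interval from 0.742 to 1.70 for counting error only.

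The partner gene cbfb, with more counts, was measured more closely. Row LL0000004967 held 36.6, 34.8 and 37.1 CPM in mutant replicates 1 to 3 and 39.6, 39.2 and 35.1 CPM in wildtype replicates 1 to 3. Mutant replicate 2 was the lowest library and wildtype replicates 1 and 2 were the highest, but wildtype replicate 3 fell among the mutants. Its log2 fold change was -0.07 (adjusted p = 0.657), and the 95% interval of the ratio ran from 0.851 to 1.07. The log2 value was between -0.12 (without wildtype replicate 3) and -0.03 (without wildtype replicate 1) with 1 library left out, and was not called.

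The gene myb, needed for definitive blood stem cells and also transcribed in other dividing progenitors, did not pass the test, and its groups overlapped. Row LL0000019794 held 15.7, 15.7 and 17.7 CPM in mutant replicates 1 to 3 and 12.3, 14.2 and 16.7 CPM in wildtype replicates 1 to 3. Mutant replicate 3 was the highest library, wildtype replicate 3 came next, and wildtype replicate 1 was the lowest. The log2 fold change was 0.17 (SE 0.125, adjusted p = 0.419), and the 95% interval of the ratio ran from 0.94 to 1.35. With 1 library left out, the log2 value was between 0.08 (without wildtype replicate 1) and 0.30 (without wildtype replicate 3), and was not called.

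The lymphoid factor ikzf1 had the most negative value of the 8 genes, on few counts. Row LL0000012632 held 15, 14 and 13 counts in mutant replicates 1 to 3 and 18, 12 and 19 counts in wildtype replicates 1 to 3. As CPM these were 1.26, 1.43 and 1.22 in mutants and 2.11, 1.17 and 1.75 in wildtype. Wildtype replicates 1 and 3 lay above every mutant library and wildtype replicate 2 lay below every one. For ikzf1 the log2 fold change was -0.35 (SE 0.349, adjusted p = 0.583), and the 95% interval of the ratio ran from 0.471 to 1.31. The value moved by over 1.5 times when 1 library was left out: it was -0.17 without wildtype replicate 1 and -0.56 without wildtype replicate 2, and neither was called.

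The Hox cofactor meis1b, broadly transcribed in the nervous system, had the smallest standard error of the 8 genes. Row LL0000018864 held 219, 221 and 222 CPM in mutant replicates 1 to 3 and 226, 254 and 217 CPM in wildtype replicates 1 to 3. The mutant libraries lay close together, inside the wildtype range, which was stretched upward by wildtype replicate 2. The log2 fold change was -0.08 (SE 0.0684, adjusted p = 0.532), the 95% interval of the ratio ran from 0.858 to 1.05, and the log2 value was -0.008 without wildtype replicate 2. In the RefSeq table meis1b overlaps psap, abcg2c, slc29a3, c1d and etaa1b. The counts of meis1b too are whole in all 6 libraries.

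The methyltransferase gene dnmt3bb.1 separated the groups but missed the threshold. Row LL0000009116 held 34.4, 35.6 and 38.1 CPM in mutant replicates 1 to 3 and 24.8, 33.7 and 29.5 CPM in wildtype replicates 1 to 3. Each mutant library lay above each wildtype library, though wildtype replicate 2 came close to mutant replicate 1. The means were 36.0 ± 1.87 CPM in mutants and 29.3 ± 4.46 CPM in wildtype (SD, n = 3 each). The log2 fold change was 0.29 (SE 0.0994), with a 95% interval of the ratio from 1.06 to 1.41. The adjusted p of edgeR was 0.0684. It fell under the threshold without wildtype replicate 2 (log2 fold change 0.40, adjusted p = 0.016) and with no low-count filter (0.0474), while DESeq2 gave 0.173. In the RefSeq table dnmt3bb.1 overlaps LOC141380470, which has no row by that name. Without wildtype replicate 1 the log2 value was 0.19, the lowest of the alternatives (adjusted p = 0.179).

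The adhesion receptor gene adgrg1 rose in mutants. Row LL0000000357 held 44.8, 49.2 and 53.0 CPM in mutant replicates 1 to 3 and 36.9, 36.8 and 35.4 CPM in wildtype replicates 1 to 3. All 3 mutant libraries lay above all 3 wildtype libraries. The gap between the groups was wider than the range of the wildtype libraries, but not wider than that of the mutant libraries. The means were 49.0 ± 4.10 CPM in mutants and 36.3 ± 0.834 CPM in wildtype (SD, n = 3 each). The log2 fold change was 0.43 (SE 0.0808; adjusted p = 0.00176), and the 95% interval of the ratio ran from 1.20 to 1.52. The gene was called with any 1 library left out, at log2 values from 0.37 to 0.50. Its expected counts are not whole in any of the 6 libraries, so reads were divided with at least 1 other row. No row, and no pair among 6955 rows with decimals, was found that completes them to whole numbers. The row that took the other part is therefore unknown, and in the RefSeq table adgrg1 overlaps LOC563479, which has no row by that name.

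**Figure D2:**
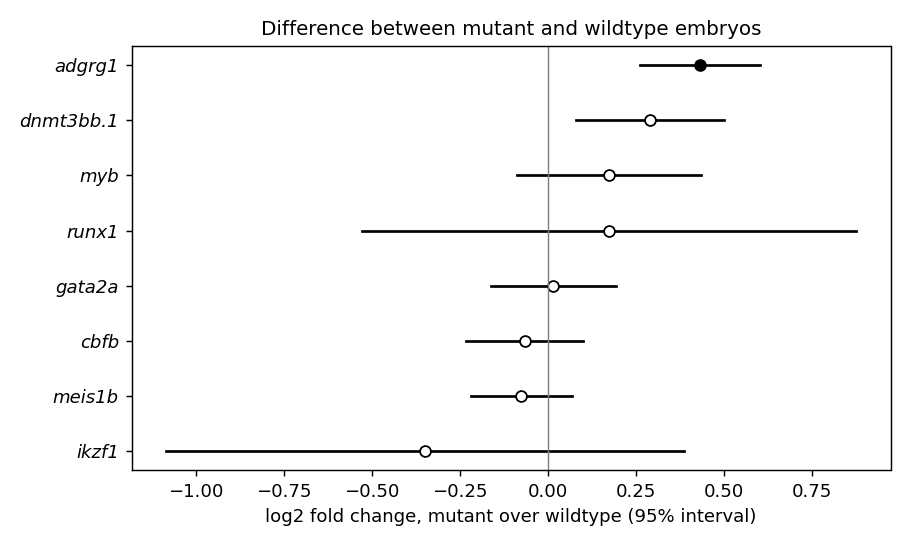
Log2 fold change of mutant over wildtype for the 8 regulators tested (horizontal axis), with the 95% interval of the edgeR fit, filled where the adjusted p is under 0.05. Only adgrg1, at 0.43, is filled, and the intervals of runx1 and ikzf1 are the widest.

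Of the 8 genes, runx1 and ikzf1 were measured with the least precision. The standard error of the log2 fold change was 0.334 for runx1 and 0.349 for ikzf1, at 10 to 22 counts per library, and 0.0684 for meis1b. The 95% intervals of the ratio for gata2a, cbfb and meis1b lay between 0.851 and 1.14, while those for runx1 and ikzf1 reached from 0.471 to 1.83. The spread between libraries was smaller in mutants than in wildtype for 6 of the 9 genes with a row, on the log2 scale of CPM with 0.5 added. That was also the case for 63.8% of all genes tested. The coefficient of variation was 0.69% in mutants and 8.27% in wildtype for meis1b, and 8.36% in mutants and 2.30% in wildtype for adgrg1. The mutant libraries were thus the more even ones for meis1b and the less even ones for adgrg1.

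**Figure D3:**
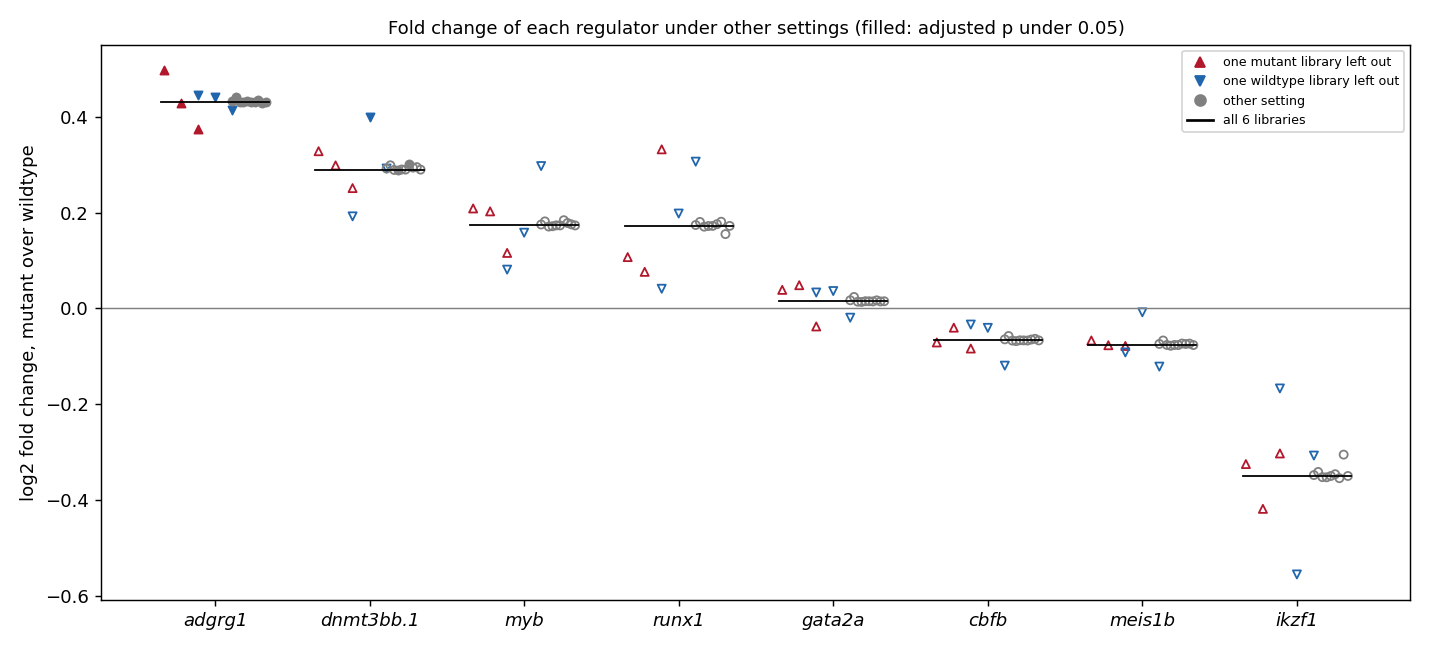
Log2 fold change of mutant over wildtype of the 8 regulators tested (vertical axis) with 1 mutant library left out, with 1 wildtype library left out and under the other settings, beside the value from all 6 libraries; filled symbols have an adjusted p under 0.05. All symbols of adgrg1 are filled, 3 of dnmt3bb.1 are, and gata2a crosses 0.

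Of 24 paralogs and partners of the regulators tested, edgeR called 0 higher and 2 lower, and DESeq2 called 0, beside 11.7% called of all genes. At an unadjusted p under 0.05 there were 10 of 24, beside 25.5% of all genes. Of the myb family, mybl2a, for a factor of dividing cells, fell to 11.8 ± 0.968 CPM in mutants, against 15.5 ± 0.188 CPM in wildtype (SD, n = 3 each; log2 fold change -0.39, adjusted p = 0.0349). The partner gene pbx1a, whose product pairs with Meis proteins, also fell (-0.37, adjusted p = 0.046), although its groups overlapped. The more abundant mybl2b, at 48.1 CPM in mutants and 45.9 CPM in wildtype, was not called (0.07, edgeR adjusted p = 0.641). Nor were pbx1b (0.05, 0.793) and pbx2 (0.07, 0.689). These 3 genes were named after their values were seen. Of the 24 log2 fold changes, 12 were positive and 12 negative, with a median of 0.02. Both calls were fragile: mybl2a was lost under DESeq2 (adjusted p = 0.169) and without any 1 library other than wildtype replicate 1, and pbx1a was lost under DESeq2 (0.0589), limma-voom (0.0727) and edgeR without robust fitting (0.0613), and without mutant replicate 2 or 3 or wildtype replicate 1 or 2.

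The de novo methyltransferase genes next to dnmt3bb.1 share reads with each other, while dnmt3bb.1 itself has whole counts in all 6 libraries. The gene dnmt3bb.2 held 39.9 ± 3.22 CPM in mutants and 34.6 ± 2.17 CPM in wildtype, and dnmt3bb.3 held 17.7 ± 1.59 CPM in mutants and 21.0 ± 2.02 CPM in wildtype (SD, n = 3 each). Their log2 fold changes were 0.21 and -0.25, and neither was called (adjusted p = 0.127 and 0.151). Added together, both rows held 57.6 ± 3.80 CPM in mutants and 55.6 ± 3.04 CPM in wildtype, a log2 fold change of 0.05 with a 95% interval from -0.11 to 0.21. A sum has a single sign, so it cannot show whether the separate rows differed in direction.

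The ratio of a regulator to its paralog within each library sets the depth of that library aside. It was taken for 6 pairs that were added after the values had been seen. It carries both genes' lengths and is compared here only between libraries. The ratio of meis1b to meis1a was 4.12, 4.01 and 4.17 in mutant replicates 1 to 3 and 4.55, 5.93 and 4.60 in wildtype replicates 1 to 3. All mutant ratios lay below all wildtype ratios, a difference of -0.28 in mean log2 ratio (2-sided exact permutation test, p = 0.1, the smallest that 3 against 3 libraries allow; adjusted p = 0.6 over 6 pairs). The ratio of dnmt3bb.1 to the sum of dnmt3bb.2 and dnmt3bb.3 was 0.641, 0.614 and 0.621 in mutants and 0.462, 0.625 and 0.498 in wildtype (difference 0.26, exact permutation p = 0.3, adjusted p = 0.6). The groups overlapped in that ratio, as wildtype replicate 2 lay between mutant libraries. For myb to mybl1, gata2a to gata3, runx1 to runx3 and ikzf1 to ikzf2 the differences ran from 0.10 to 0.21, with exact permutation p from 0.2 to 0.9.

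**Figure D4:**
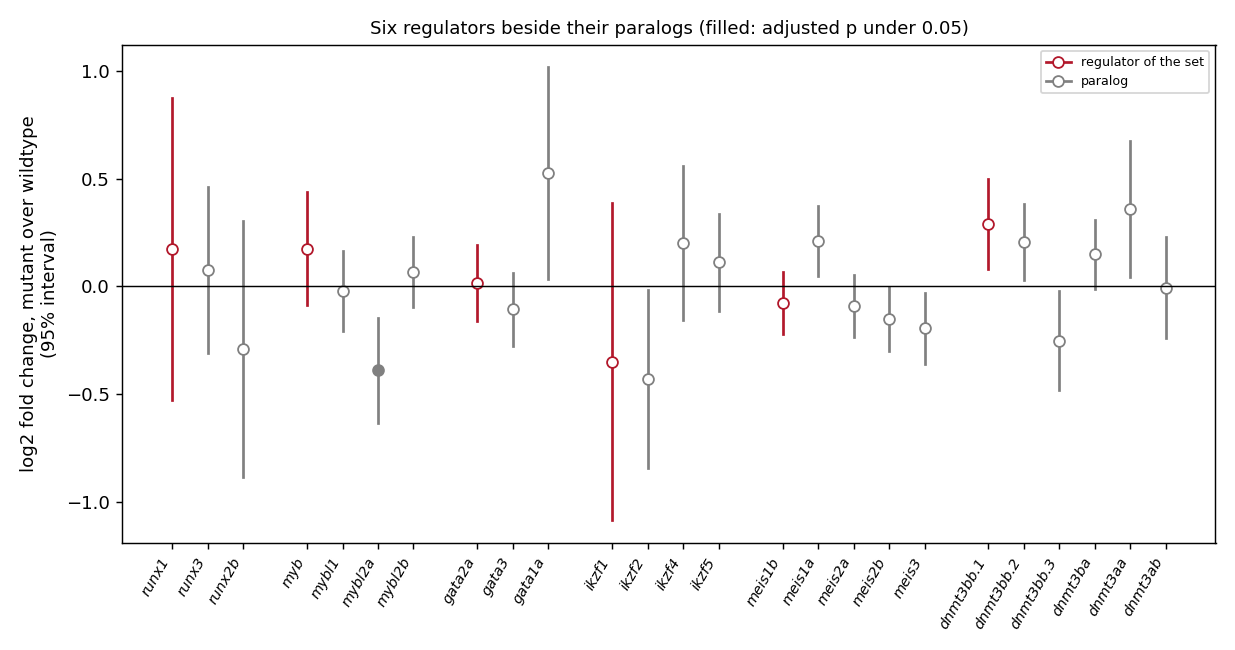
Log2 fold change of mutant over wildtype with its 95% interval (vertical axis) for 6 regulators beside the tested members of their families. Filled symbols have an adjusted p under 0.05, and mybl2a, at -0.39, is the single one.

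Other genes of the stem and progenitor program divided about evenly by sign. Over all genes tested, edgeR called 5.85% higher and 5.87% lower, and 25.5% had an unadjusted p under 0.05. Of 25 tested, edgeR called 0 higher and 2 lower (3 at an unadjusted p under 0.05), DESeq2 called 1 in all, 12 had positive and 13 negative values, and the median was -0.006, or 0.003 with upper quartile scaling. The co-repressor gene runx1t1, whose human counterpart is fused to RUNX1 in some leukemias, fell to 48.0 ± 1.72 CPM in mutants, against 58.4 ± 1.45 CPM in wildtype (log2 fold change -0.28, adjusted p = 0.0159), and the GATA cofactor gene zfpm1 fell as well (-0.48, adjusted p = 0.0245). The early blood and endothelial factors tal1 (0.10, adjusted p = 0.601) and lmo2 (0.02, adjusted p = 0.954), the stem cell factor receptor gene kita (-0.15, adjusted p = 0.47) and the pan-leukocyte gene ptprc (0.36, adjusted p = 0.387) were not called. The Runx1 target gfi1aa was too low to be tested, at 0.299 ± 0.282 CPM in mutants and 0.702 ± 0.312 CPM in wildtype, with 0 counts in mutant replicate 2 (a count of 0 allows up to 0.305 CPM there). Its relatives gfi1ab (-0.54, edgeR adjusted p = 0.223), named after its value was seen, and gfi1b (0.67, 0.221) were not called. The groups overlapped for gfi1ab. Those of gfi1b, like those of 30.5% of all genes, did not overlap. Of the 2 called genes, runx1t1 was lost without mutant replicate 2 (adjusted p = 0.0765) or 3 (0.083), and zfpm1 under DESeq2 (0.114) and without any 1 mutant or wildtype replicate 2 (0.0783 to 0.111).

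Of endothelial and Notch pathway genes, which act before the stem cells emerge, the Notch ligand genes jag1b, jag1a and dlc rose. Of 24 tested, 5 were called higher and 0 lower, beside 5.85% of all genes called higher. All 24 log2 fold changes were above 0, with a median of 0.20, and 9912 of all 20229 genes tested were above 0. The lowest of the 24 were close to 0, with flt4 at 0.0004 and notch1b at 0.0099, both named after their values were seen. The Notch ligand genes jag1b and jag1a rose to 30.0 ± 0.793 and 30.6 ± 2.37 CPM in mutants, against 19.3 ± 2.78 and 22.1 ± 1.77 CPM in wildtype (SD, n = 3 each; log2 fold changes 0.63 and 0.47; adjusted p = 0.000595 and 0.00333). The receptor gene notch3 (0.29) and the cytokine receptor gene il6st (0.41) rose too. So did the ligand gene dlc (0.25, edgeR adjusted p = 0.0424), outside the naming rule and chosen after its value was seen. The notch3 call was lost without mutant replicate 2 (adjusted p = 0.103) or 3 (0.056). The dlc call was lost in both cases too, and also without wildtype replicate 2, without robust fitting and under DESeq2 and limma-voom. The other Notch ligand genes of the list, named after their values were seen, were not called. They were dld (0.23, edgeR adjusted p = 0.073), jag2b (0.16, 0.241) and dll4 (0.02, 0.962). The endothelial receptor and adhesion genes kdrl and cdh5 were not called: kdrl had 0.14 (adjusted p = 0.295) and cdh5 0.21 (0.123; 0.0261 without wildtype replicate 1). The count of calls was 3 without mutant replicate 2 or 3. These ligands and receptors are also transcribed in neural tissue, and the summed level of the list was 1400 to 1560 CPM in mutants and 1250 to 1310 CPM in wildtype. The part of any 1 cell type in this was not tested.

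Among niche and cytokine genes, a chemokine gene rose. The chemokine gene cxcl12b, for a ligand of the Cxcr4 receptors that guide migrating cells, rose to 80.2 ± 1.11 CPM in mutants, against 47.5 ± 2.00 CPM in wildtype (SD, n = 3 each; log2 fold change 0.76; adjusted p = 1.71e-06), and it was called with any 1 library left out. Of 18 tested, cxcl12b and klf6a (0.25, edgeR adjusted p = 0.0301), a Krüppel-like factor gene, were called higher and 0 lower, with a median of 0.19. Over all genes tested, 5.85% were called higher. The klf6a call was lost without any 1 mutant (0.10 to 0.13) or wildtype replicate 2 (0.116) and without robust fitting (0.057), and the list's count was then 1. The paralog cxcl12a (0.12, edgeR adjusted p = 0.329) and the receptor genes cxcr4a (0.17, 0.535) and cxcr4b (-0.07, 0.739) were not called. They were named after their values were seen. Which cells transcribed the niche and cytokine genes was not tested.

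Among markers of blood lineages, most calls were higher in mutants, and only mpx and marco were called lower. Positive and negative log2 fold changes numbered 15 and 1 for erythroid, 6 and 3 for macrophage, 6 and 1 for thrombocyte and 5 and 1 for lymphoid genes. Of all 20229 genes tested, 9912 were positive and 10317 negative. Over all genes tested, edgeR called 5.85% higher and 5.87% lower. Of 16 erythroid genes tested, 2 were higher, tfr1a (log2 fold change 0.37, adjusted p = 0.00537), for the transferrin receptor, and sptb (0.33, adjusted p = 0.00621), for a spectrin of the red cell membrane, and 0 lower. The median was 0.40, and 13 were called without wildtype replicate 1, 4 without wildtype replicate 2 and 1 without mutant replicate 2. With all libraries, limma-voom called 7 higher, as did edgeR without robust fitting. The called tfr1a and sptb did not share the peak of the globin gene hbae1.1 in wildtype replicate 1. In wildtype replicates 1 to 3, tfr1a held 47.6, 44.6 and 47.9 CPM and sptb 65.1, 75.6 and 71.9 CPM. The gene hbae1.1 held 3307, 1478 and 1671 CPM there. Of 12 genes listed for neutrophils (median -0.13, 1 call without mutant replicate 1), nccrp1 (0.42) and cpa5 (0.56) were higher. These 2 genes are not specific to neutrophils. The myeloperoxidase gene mpx (-0.45, edgeR adjusted p = 0.00673) was lower. Of the 12 log2 fold changes, 5 were positive and 7 negative. The nccrp1 call was lost without mutant replicate 1 (adjusted p = 0.0591), and the cpa5 call under DESeq2 (0.144) and without any 1 library other than wildtype replicate 1. Of 9 macrophage genes (median 0.37; 1 call with any 1 library left out), mfap4 (0.91, adjusted p = 0.00181) was higher and the scavenger receptor gene marco (-0.92) lower, and the marco call was lost with any 1 library left out (0.0541 to 0.15) and under DESeq2 (0.19). The myeloid factor gene spi1b (0.18, adjusted p = 0.767), which shares reads with si:ch73-314g15.3, and the macrophage gene mpeg1.1 (0.36, adjusted p = 0.338) were not called. Of 7 thrombocyte genes, fn1b (0.73), thbs1b (0.65) and f13a1b (0.69) were higher and 0 lower (median 0.65; 5 calls without wildtype replicate 1). The 3 called genes are not specific to thrombocytes. Expected counts of mfap4 and fn1b were not whole in any of the 6 libraries, and no single row completing them was found. Their reads were thus divided with other, unknown rows. The platelet glycoprotein genes gp9 (1.16, edgeR adjusted p = 0.0593) and gp1bb (0.62, adjusted p = 0.0542), named after their values were seen, were not called. All their mutant libraries lay above all wildtype libraries, as for 15.1% of all genes tested. The defining gene itga2b had 0 counts in all 6 libraries. Of 6 lymphoid genes tested, edgeR called 0 (1 at an unadjusted p under 0.05, beside 25.5% of all genes), and DESeq2 and limma-voom 0 each. The recombinase gene rag1 had 1.24 ± 0.456 CPM in mutants and 1.17 ± 0.478 CPM in wildtype (SD, n = 3 each). Which cells gave these reads, and whether those cells came from stem cells, was not tested.

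Among 14 neural markers, tested because gata2a, meis1b and adgrg1 are transcribed in neural cells, elavl4, for an RNA-binding protein of neurons, was lower (log2 fold change -0.25, adjusted p = 0.0329), and the median was -0.009, or 0.000 with upper quartile scaling. Their summed level was 1450 to 1470 CPM in mutants and 1450 to 1520 CPM in wildtype, and 0 of these markers were at 0 in all libraries. The gene elavl4 was not called without any 1 mutant library or without wildtype replicate 2 (adjusted p from 0.103 to 0.135), nor by limma-voom (0.0535) or without robust fitting (0.0704). Of the 14, edgeR called 2, 1 higher and 1 lower, beside 11.7% of all genes tested. At an unadjusted p under 0.05 there were 5, beside 25.5% of all genes. The list's count of calls was 0 without mutant replicate 2 or 3 or wildtype replicate 2. The summed levels of the macrophage, neutrophil, erythroid and lymphoid lists overlapped between genotypes, while those of the endothelial, niche and thrombocyte lists were above the wildtype range in all mutant libraries. That of the other stem cell genes was below it, at 570 to 579 CPM in mutants and 590 to 595 CPM in wildtype. Of that list's 25 log2 fold changes, however, 12 were positive and 13 negative, with a median of -0.006. A few abundant genes carry some of the sums. In the thrombocyte list, fn1b averaged 339.6 CPM in mutants and 204.2 CPM in wildtype, and thbs1b 201.1 and 128.5 CPM. In the macrophage list, apoeb averaged 1932 CPM in mutants and 2086 CPM in wildtype. In the list of other stem cell genes, runx1t1 averaged 48.0 CPM in mutants and 58.4 CPM in wildtype. There cbfa2t3, named after its value was seen and not called, averaged 79.5 and 87.2 CPM. The sums are therefore not levels of a cell type. The part of these lists in the adgrg1 result was not tested.

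**Figure D5:**
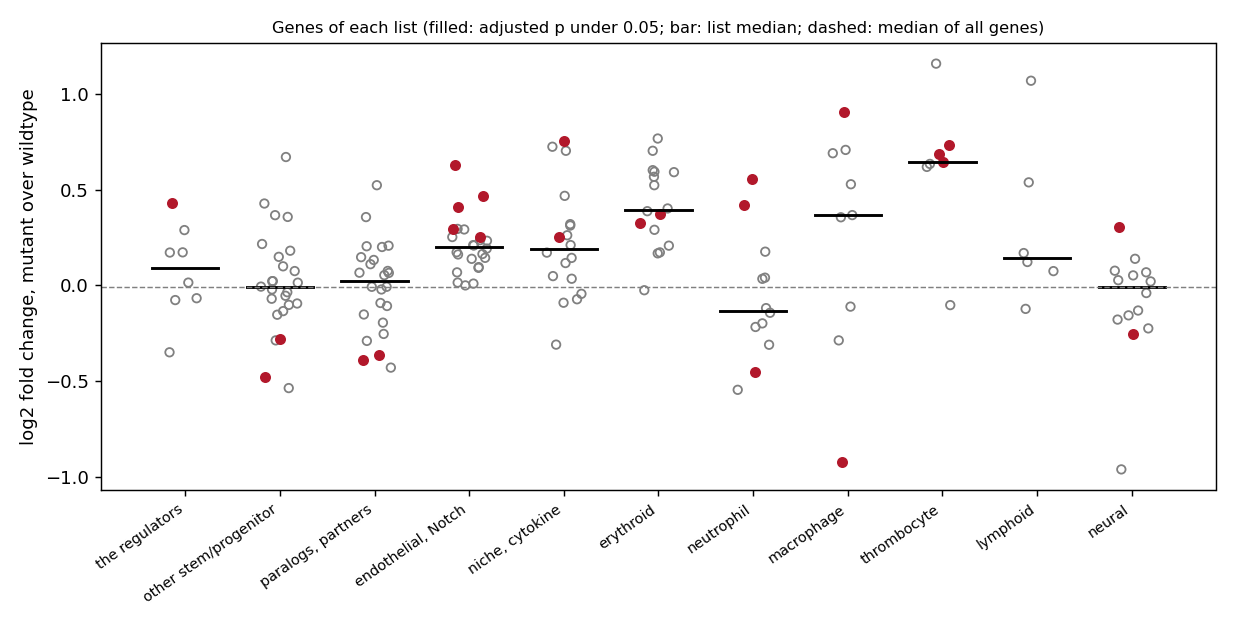
Log2 fold change of mutant over wildtype (vertical axis) of each gene tested in the regulators and in 10 other lists, 1 point per gene, filled where the adjusted p is under 0.05, with the median of each list as a bar and that of all genes as a dashed line. The endothelial and Notch list runs upward from 0.0004, with a median of 0.20. The regulators, with a median of 0.09, have adgrg1 as their single filled point.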

How the data were processed

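Per the submitters' processing notes, STAR, RSEM and DESeq2 were used with genome build danRer11; versions, options and the annotation are not given in the sources used here. The authors deposited 1 table of expected counts per gene row and library, not scaled between libraries; 18.8% of its values are not whole (tolerance 0.005). Columns were assigned by genotype and number in their names, the casper columns being wildtype. After rounding, edgeR 4.0.16 (R 4.3.3) was applied: filterByExpr (minimum count 10), TMM factors, quasi-likelihood test with robust fitting, Benjamini-Hochberg adjustment over all genes tested, calls at adjusted p under 0.05. Standard errors are the size of the log2 fold change over the square root of F, and 95% intervals use the t quantile of the fit. Rows sharing reads were searched by decimals that complete each other to whole numbers in every library (tolerance 0.011). Both the fit and the search were tested on simulated data. In the simulation of the search only planted pairs had decimals, so it could not show the rate of false matches here.

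The regulators and the 10 other gene lists were chosen with earlier results of these data known; no set test was run. Named genes are the regulators, dnajc21, 14 genes fixed by name, rows sharing reads with a regulator, and up to 4 called genes of each other list by adjusted p. The floor for a 0 is 3 counts, which is 0.254 to 0.349 CPM by library. Intervals and floors on counts cover counting error only: reads copied by PCR are no independent molecules. Alternatives were other scalings, filters and fits, DESeq2 1.42.0, limma 3.58.1 (voom), the replicate block, summing rows that share reads, and leaving out each library. Figures used Python 3.11.15 and matplotlib 3.10.9. The RefSeq table (GRCz12tu) served only for names and neighbouring genes. A called gene of the neural list is not reported here.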

Additional observations from a re-analysis of the deposited data

How the results depend on the processing

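Under 16 alternatives, adgrg1 was called each time, at log2 fold changes from 0.37 to 0.50 and adjusted p from 0.000298 to 0.0203. In 1 of these, rows sharing reads were summed. That setting left the adgrg1 row unchanged, as no row completing its counts was found, so it does not bear on adgrg1. The regulators called numbered 2 rather than 1 with no low-count filter (of 9 tested) and with the replicate block (of 8 tested). The other gene was dnmt3bb.1 (edgeR adjusted p = 0.0474 and 0.0383). With no low-count filter 2624 of 30689 genes were called in all. With 1 library left out the count of regulators was 1 to 2. The value of gata2a changed sign, from -0.0375 to 0.0486 with 1 library left out, as did lmo2 (-0.14 to 0.24), spi1b (-0.0837 to 0.40), hbae1.1 (-0.0416 to 0.62) and rag1 (-0.16 to 0.41). The called genes over all those tested numbered 1507 with DESeq2 and 1242 to 2658 with 1 library left out, against 2372; those of the other lists numbered 11 to 38, against 23. No pairing by replicate number was seen: deviations of same-numbered mutant and wildtype libraries correlated at -0.04, -0.002 and 0.03 across 20229 genes. As the mutant libraries differed little from each other, this could not show whether the libraries were paired. The replicate block gave 2470 calls, against 2372. It also ended the marco call (adjusted p = 0.0646) and called 4 erythroid genes. Other scalings moved the median of all genes to between -0.007 and 0.003. Where a library was left out, the spread was estimated from the 5 others. Depth limits gata2b, which was tested only with no low-count filter (log2 fold change 0.12, edgeR adjusted p = 0.97), and runx1 and ikzf1, whose intervals are wide.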

Other observations

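Genes next to the regulators were read as a description, added after the values had been seen. Of 39 tested protein-coding genes within 3 positions of a regulator in the RefSeq table (assembly GRCz12tu), 0 were higher in mutants, beside 5.85% of all genes. Lower in mutants were 2, beside 5.87% of all genes. The 2 are aldh8a1, an aldehyde dehydrogenase gene near myb, and cdc42l2 near dnmt3bb.1. The first, aldh8a1, held 5.42 ± 0.648 CPM in mutants and 11.6 ± 1.87 CPM in wildtype (SD, n = 3 each; log2 fold change -1.10, edgeR adjusted p = 0.0002). The gene cdc42l2 held 0.473 ± 0.223 CPM in mutants and 1.37 ± 0.330 CPM in wildtype (-1.54, adjusted p = 0.0402). The tested neighbours of adgrg1 lay close to 0, with slc7a6os at -0.10, slc7a6 at -0.07, ccdc102a at -0.0007 and dok4 at 0.01, none of them called (adjusted p of 0.447 to 0.998).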
